A study of Rattus norvegicus with 12 samples.

Results

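Heat shock proteins and co-chaperones were read on 119 of the 45598 rat probes of the array, and these probes carry 87 of the 25626 gene names on the array. They were chosen by gene name alone. The rule took names that begin with Hspa, Hspb, Hspd, Hspe, Hsph or Hsp90, and the J proteins named Dnaja, Dnajb or Dnajc. It also took Bag1 to Bag6, Hsf1, Hsf2 and Hsf4, and Serpinh1, Stip1, Ahsa1 and Chordc1. Members of these families under other names were not taken. Of the 119 probes, 110 passed the filter on dim probes and covered 80 genes, and 85 of these probes were well above background on all 12 arrays. The 7 genes with no probe past the filter were Dnajb7, Dnajc5b, Dnajc5g, Hspa12a, Hspa1b, Hspa1l and Hspb7.

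Chaperones bind proteins that have lost their fold. HSP70 works with J proteins, which bring it clients and start its ATP cycle, and with nucleotide exchange factors such as the BAG and HSP110 proteins, which let the client go. HSP90 takes over late folding steps with helpers such as Stip1 and Ahsa1, small heat shock proteins hold unfolded chains until HSP70 can act, and HSP60 with HSP10 folds proteins inside mitochondria. When heat or another stress unfolds proteins, heat shock factor 1 binds repeats of the bases GAA and TTC in the promoters of the inducible chaperones. That response is known to be rapid and short-lived, and the question here was whether heating of bone by a laser left a trace in these genes a day later.

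Gene expression was measured in calvaria, the bone of the skull roof, of rats 10 weeks old, at 24 h after surgery, with one Cy3-labelled RNA sample per array. The laser group (4 arrays) had an 8 by 3 mm defect cut by 3 strokes of an Er:YAG laser, whose light is absorbed by water and heats it, at 20 Hz, 127 mJ per pulse and about 2 mm/s. The bur group (4 arrays) had a defect of that size cut with a rotating bur at about 0.75 mm/s, and the control group (4 arrays) had the periosteum lifted off with the bone left uncut. Periosteum removal was stated for the controls only, and no genotype, strain or sex was given. Which animals stand behind the samples of a group was not stated, and p-values therefore cover only the spread among these arrays, which may be technical. Arrays are named by group and the replicate number of the label, and values for a group run from replicate 1 to 4.

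The arrays of the groups also differed outside the chaperones. The median processed signal before normalization was 55.6 to 81.9 on the laser arrays, 18.6 to 28.3 on the bur arrays and 16.5 to 43.2 on the control arrays. All laser arrays lay on one slide and all bur and control arrays on another, so slide and treatment cannot be told apart wherever laser is compared. Bur and control arrays lay in separate columns of their slide, so column and treatment cannot be told apart there. All 11 osteoblast and osteocyte markers were above background in every group, as the tissue label calls for. Mbp, a myelin gene, read 7.41 to 7.81 log2 on the laser arrays and 6.22 to 9.92 on the bur arrays, against 13.29 on control 1, 12.37 on control 4 and 7.87 and 8.14 on the other controls. Of the other myelin genes, Mag (1.32 log2, adjusted p = 0.0157) and Mobp (0.93, adjusted p = 0.0431) were higher in laser than control bone. Summed neutrophil markers were 109000 to 156000 on the laser arrays, 38900 to 65500 on the bur arrays and 58400 to 81500 on the control arrays. Of the 8 markers, Camp, S100a8 and S100a9 were higher in laser bone than in either other group, and 5 were called in neither comparison. The median log2 difference of the 8 was -0.21 for laser against control and 0.77 for laser against bur.

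Sequences were read first, since the response to heat runs through the promoter. RefSeq promoter windows (GRCr8 assembly, 250 bases before to 50 after the start of the gene) were at hand for 69 of the 87 names. They were searched for an inverted pair of heat shock element units, GAANNTTC or TTCNNGAA, which are each their own reverse complement, and for the run of 3 units GAANNTTCNNGAA or its reverse complement, in which both pairs overlap. Of 16 genes on a list of classical heat-inducible chaperones, 12 (75%) held a pair, against 8 of the 53 other members (15.1%) and 15.4% of all 27457 promoter windows. The run of 3 units stood in 7 of the 16 (43.8%), in 0 of the 53 and in 0.736% of all windows. No pair was found in the windows of Ahsa1, Hsp90ab1, Hspa1a and Hspa4, which says only that these letters are not in those windows. Windows of the members on which the results below turn are printed 5′ to 3′ with the matched letters in capitals. They are those of Hspa8 (8:50080264-50080563, plus strand), Hsph1 (12:10427118-10427417, plus strand), Serpinh1 (1:163062927-163063226, minus strand), Bag3 (1:192533210-192533509, plus strand) and Hspe1 (9:64084077-64084376, plus strand).
Hspa8: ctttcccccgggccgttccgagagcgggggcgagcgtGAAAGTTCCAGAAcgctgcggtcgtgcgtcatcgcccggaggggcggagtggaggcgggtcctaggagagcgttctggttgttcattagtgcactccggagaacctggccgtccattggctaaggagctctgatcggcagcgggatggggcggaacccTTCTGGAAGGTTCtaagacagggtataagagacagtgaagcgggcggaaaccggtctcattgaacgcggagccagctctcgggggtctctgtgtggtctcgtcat
Hsph1: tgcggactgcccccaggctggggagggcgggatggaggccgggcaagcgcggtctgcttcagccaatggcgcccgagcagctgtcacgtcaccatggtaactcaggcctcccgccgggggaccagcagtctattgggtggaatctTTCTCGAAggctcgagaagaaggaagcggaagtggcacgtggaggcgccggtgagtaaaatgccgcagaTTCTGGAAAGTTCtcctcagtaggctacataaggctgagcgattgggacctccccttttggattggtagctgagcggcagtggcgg
Serpinh1: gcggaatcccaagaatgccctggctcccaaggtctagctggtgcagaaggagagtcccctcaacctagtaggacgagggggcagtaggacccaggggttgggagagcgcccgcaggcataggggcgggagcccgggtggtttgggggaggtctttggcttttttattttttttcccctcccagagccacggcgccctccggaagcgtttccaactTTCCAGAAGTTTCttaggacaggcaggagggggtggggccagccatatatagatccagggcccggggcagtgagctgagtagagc
Bag3: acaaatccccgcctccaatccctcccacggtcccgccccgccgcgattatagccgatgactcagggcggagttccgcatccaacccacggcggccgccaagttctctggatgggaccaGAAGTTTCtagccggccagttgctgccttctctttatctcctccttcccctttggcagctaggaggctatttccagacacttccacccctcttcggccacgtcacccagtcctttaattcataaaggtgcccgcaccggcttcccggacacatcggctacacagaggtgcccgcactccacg
Hspe1: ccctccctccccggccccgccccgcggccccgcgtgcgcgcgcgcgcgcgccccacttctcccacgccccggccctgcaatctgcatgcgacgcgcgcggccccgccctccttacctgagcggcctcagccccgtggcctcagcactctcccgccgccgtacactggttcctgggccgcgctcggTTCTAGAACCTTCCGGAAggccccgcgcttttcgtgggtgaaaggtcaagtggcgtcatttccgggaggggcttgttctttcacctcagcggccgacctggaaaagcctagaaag
Hspe1 and Hspd1 lie head to head, and their windows share 211 bases. One 18-base run serves both: it begins at -65 from the start of Hspe1 as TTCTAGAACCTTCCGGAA and at -242 from the start of Hspd1, on the other strand, as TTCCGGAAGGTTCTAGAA (9:64084262-64084279). Counted in bases from the start, Hspa8 holds its pairs at -213 to -201 and -55 to -43, Hsph1 at -105 to -98 and -36 to -24, Serpinh1 at -35 to -23 and Bag3 at -132 to -125.

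**Figure D1:**
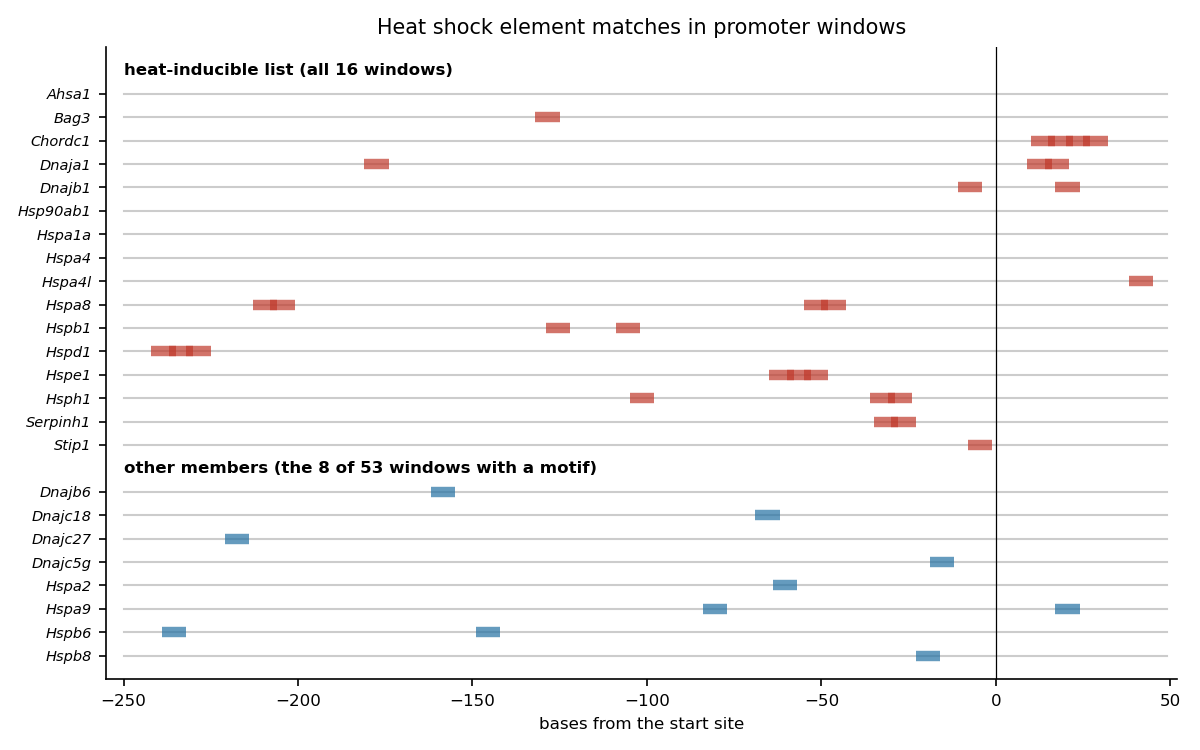
Position of each matched element pair (GAANNTTC or TTCNNGAA) within the promoter windows, in bases from the start of the gene on the x axis, one gene per line. All 16 windows of the heat-inducible list and the 8 other member windows with a match are drawn; the windows of Ahsa1, Hsp90ab1, Hspa1a and Hspa4 are empty.

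Against control, 27 of the 80 measured genes differed in laser bone (33.8%, limma adjusted p under 0.05), 14 higher and 13 lower; 2 of the 14 (Hspb9 and Dnajb8) passed the filter on dim probes through the laser arrays alone. Of all 16381 genes tested, 33.4% differed, 17.8% higher and 15.6% lower, so the share among the chaperones was near the background. In bur bone 20 of the 80 differed (25%), 14 higher and 6 lower, against 21.9% of all genes, 12.8% higher and 9.12% lower. Between laser and bur 14 differed (17.5%), 5 higher and 9 lower in laser bone, against 25.6% of all genes, 11.6% higher and 14% lower. The 5 also include Hspb9 and Dnajb8, which passed the filter through the laser arrays alone. The split in the bur comparison depends on scaling: with arrays scaled to their 75th percentile it was 7 higher and 9 lower for bur against control, and 11 higher and 10 lower for laser against bur. Counts of laser against bur ran from 7 to 20 when single arrays were left out, with 7 without bur 4, 8 without laser 1 or laser 3, 9 without laser 2 or laser 4 and 20 without control 1. The 14 rises in bur bone were 9 without bur 1.

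Median log2 differences of the members were 0.0139 for laser against control, 0.165 for bur against control and -0.069 for laser against bur, beside 0.0133, 0.0753 and -0.0647 over all genes. All 4 values of one group lay above all 4 of the other for 34 members in laser against control, 21 in bur against control and 24 in laser against bur, where 35.2%, 23.2% and 33.6% of all genes did so. The comparisons with control share the same 4 control arrays. Across them 8 members were higher than control after both procedures, 5 were lower after both, 0 were called in opposite directions, and 43 were called in none of the 3 comparisons. The shares of all genes called in both or in none were not counted, so these numbers have no background to be read against. In bulk bone, fewer cells of a type and less RNA per cell cannot be told apart.

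**Figure D2:**
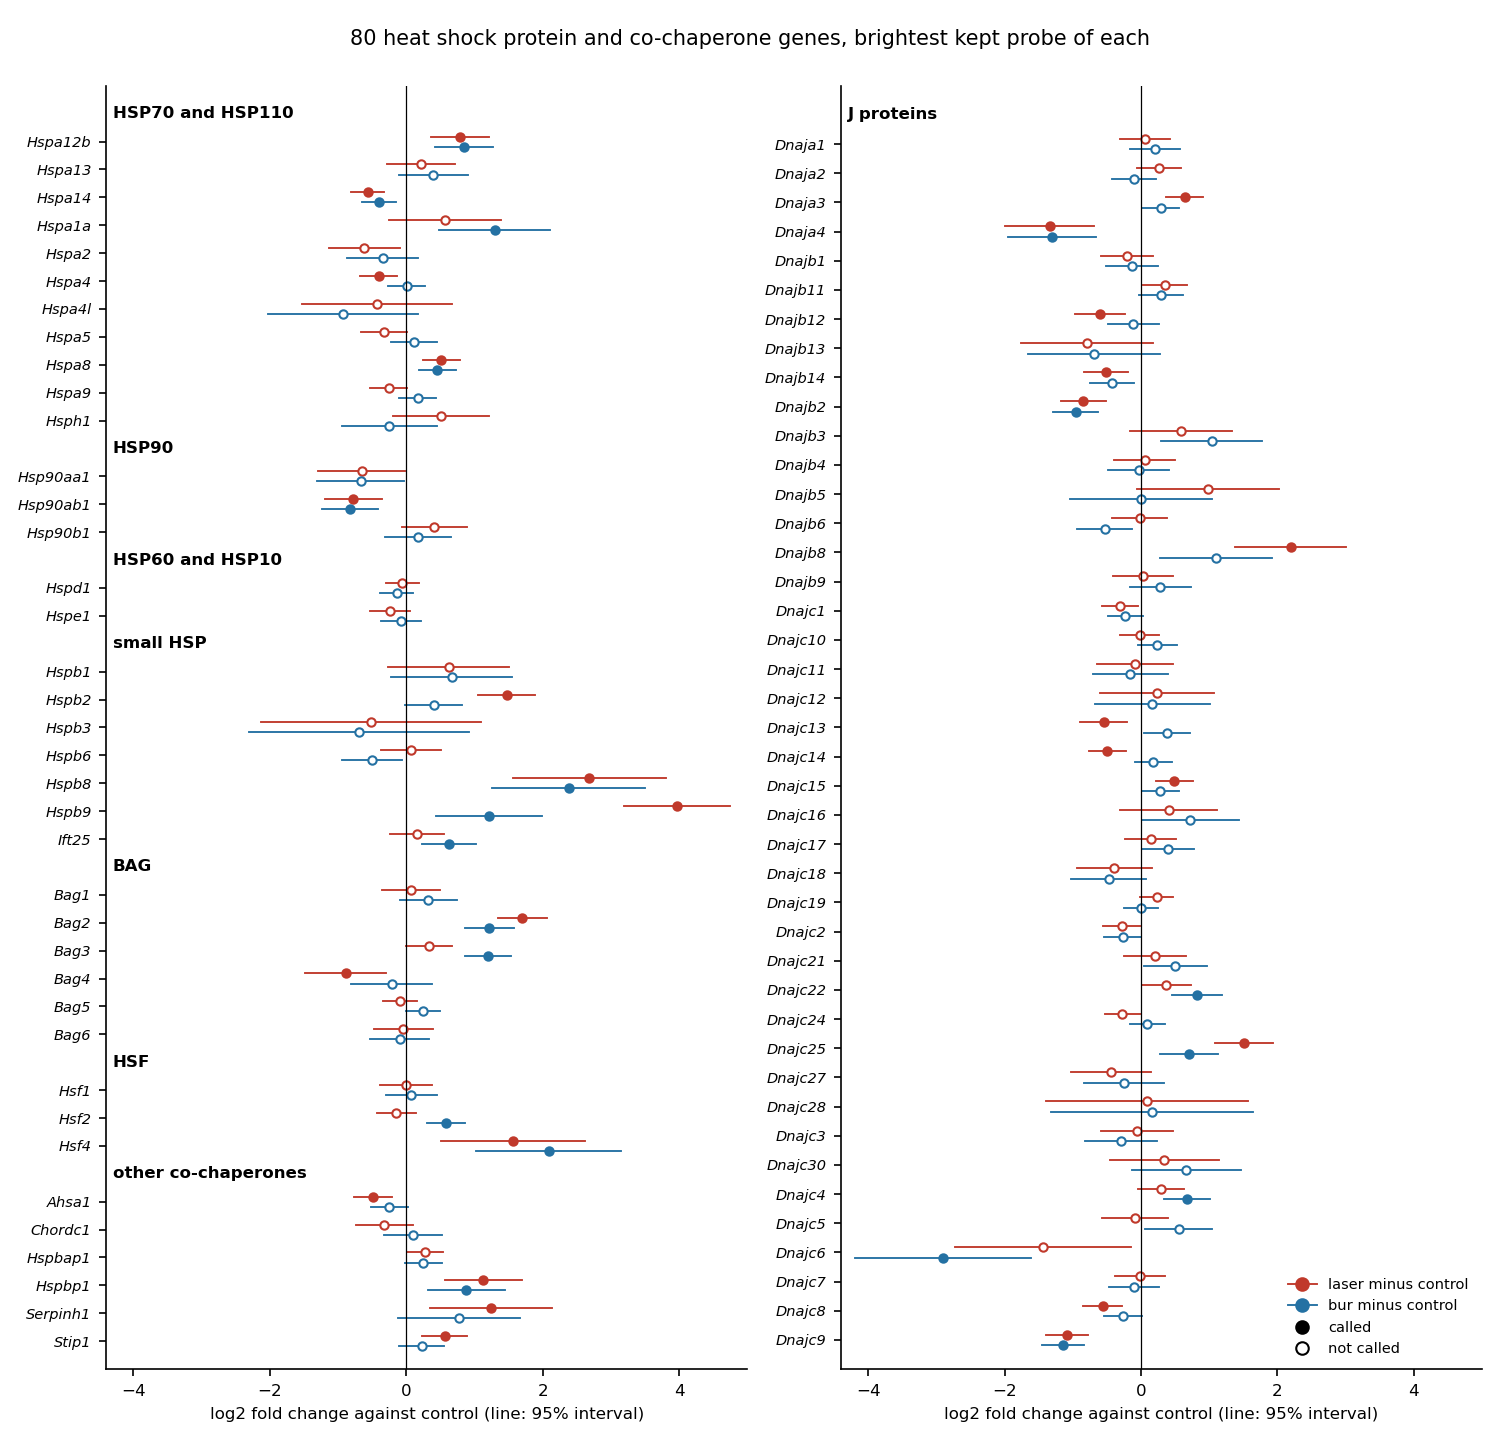
Log2 fold change against control (x axis) of the 80 measured members, one gene per line, with the laser value in red above the bur value in blue. Lines are 95% intervals and filled points are called at a limma adjusted p under 0.05; Bag3 and Hsf2 are called for bur and not for laser, Hspb2 for laser and not for bur.

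Classical heat-inducible chaperones, each read by its brightest probe, did not move as a group. Of 19 on the list, 18 were measured. In laser bone 3 were higher than control (Hspa8, Stip1 and Serpinh1) and 3 lower (Hsp90ab1, Hspa4 and Ahsa1). In bur bone 3 were higher (Hspa1a, Hspa8 and Bag3) and 1 lower (Hsp90ab1). Of all genes, 17.8% were higher and 15.6% lower than control after laser, and 12.8% and 9.12% after bur. With single arrays left out, the 3 higher in bur bone became 1 without bur 2 and 5 without control 2, and the 1 lower became 2 without bur 1. Between laser and bur bone 2 were lower in laser (Bag3 and Hspa4) and 0 higher; without bur 1 there were 2 higher, and without laser 1, laser 3, bur 3 or bur 4 there was 1 lower. Of all genes, 11.6% were higher and 14% lower. The 0 holds for brightest probes only: calls differed between probes of Hspa8, Hspd1 and Hsp90aa1, as given below. In the authors' deposited table Hsph1 and further probes of Hspa8 and Hsp90ab1 are higher in laser than bur bone. Bag3, Hspa4 and Chordc1 are lower there. The median log2 difference of the 18 measured genes was 0.0003 for laser against control, -0.0132 for bur against control and -0.0139 for laser against bur.

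Hspa1a encodes the HSP70 that is nearly silent at rest and strongly induced by heat. Its brightest probe (rat genome build rn4, chr20:3958289-3958348) read 7.77, 7.64, 7.29 and 7.5 log2 on the laser arrays, 8.60, 8.17, 8.17 and 8.16 on the bur arrays, and 7.09, 7.86, 7.33 and 5.64 on the control arrays. The laser values lay inside the control range, and every bur value lay above every control value. Laser minus control was 0.57 ± 0.37 log2 (SE), with a 95% interval of -0.25 to 1.39 (limma adjusted p = 0.267), and it was 0.12 without control 4 and 0.86 without control 2, called in neither. Bur minus control was 1.30 ± 0.37, a 2.46-fold difference (adjusted p = 0.0306). That call did not hold in a fit of the 2 groups alone (adjusted p = 0.0877) or without bur 1 (1.19), bur 2, bur 3, bur 4 or control 1 (1.33 each), with adjusted p from 0.0522 to 0.0741. Control 4 was the lowest array, and without it the difference was 0.85. Laser minus bur was -0.73 (adjusted p = 0.175), called without control 4 (adjusted p = 0.0189), without control 1 and control 4 together and in a fit of the 2 groups alone (adjusted p = 0.00993). A second, dimmer Hspa1a probe read 3.30, 3.46, 2.86 and 2.61 on the laser arrays, 5.36, 3.93, 3.10 and 3.41 on the bur arrays and 2.02, 4.31, 2.07 and 2.16 on the control arrays, and was called in no comparison. In the authors' deposited table the second probe is higher in bur than control bone (0.93, adjusted p = 0.00558, by the authors' own test). There it is not called for laser against control (0.37, adjusted p = 0.155). Hspa1b is a near-identical copy of Hspa1a, and how far its RNA adds to these probes was not tested.

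Hspa8, the constitutive HSP70 that also has heat shock elements, was read by 4 probes that did not give one answer. The brightest read 15.53, 15.57, 15.35 and 15.34 log2 on the laser arrays, 15.42, 15.59, 15.30 and 15.25 on the bur arrays, and 15.05, 14.99, 14.80 and 14.90 on the control arrays. On it, both cut groups lay wholly above the controls. Laser minus control was 0.51 ± 0.12 (1.43-fold, adjusted p = 0.00868), bur minus control 0.46 (1.37-fold, adjusted p = 0.0242), and laser minus bur 0.06. The bur call was lost without bur 2 (0.39, adjusted p = 0.0624), without control 4 (0.45, adjusted p = 0.0516), under 75th-percentile scaling (0.25), with array weights (0.45), with the mean of the kept Hspa8 probes (0.35), in a fit of the 2 groups alone and without control 1 and control 4 together (0.50).

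A second Hspa8 probe shares 40 of its 60 bases with the first and lies 20 bases further along the transcript. It read 15.32, 15.24, 15.02 and 15.06 on the laser arrays, 13.10, 13.58, 13.15 and 13.39 on the bur arrays, and 13.78, 13.50, 12.87 and 13.01 on the control arrays. There laser lay apart from both other groups, 1.87 log2 above control (adjusted p = 5.88e-05) and 1.86 above bur (adjusted p = 6.88e-05), while bur and control overlapped (0.01, adjusted p = 0.98). In the authors' deposited table the second probe is called in every comparison, by the authors' own test. Laser is 1.08 above control (adjusted p = 2.94e-05) and 0.68 above bur (adjusted p = 0.000737) there. Bur is 0.40 above control (adjusted p = 0.016). Only the outer 20 bases differ between these probes, at rn4 chr8:43787677-43787696 for the first and chr8:43787737-43787756 for the second, both on the plus strand.
Hspa8 first probe only: aagtcaaagtagagggtata
Hspa8 second probe only: ataaaactatttaaattggc

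The other 2 Hspa8 probes lie upstream, from base 1792 and base 523 of the transcript. The probe at 1792 read 13.98, 14.08, 13.71 and 13.74 on the laser arrays, 13.47, 13.10, 12.74 and 12.96 on the bur arrays, and 13.28, 12.80, 12.44 and 12.50 on the control arrays. Laser exceeded control by 1.12 (adjusted p = 0.00226) and bur by 0.81 (adjusted p = 0.0161), and bur minus control was 0.31. The probe at 523 put laser 0.65 (adjusted p = 0.0739) and bur 0.64 (adjusted p = 0.101) from control. Laser bone was therefore called higher than control on 3 of 4 Hspa8 probes, with sizes from 0.51 to 1.87, and higher than bur on 2 of the 4. On the probe at 523 laser also read above control, without a call. The mean of the kept probes gave 1.04 for laser against control and 0.68 for laser against bur (adjusted p = 0.00832), which was called, as it was under 75th-percentile scaling (0.50).
Hspa8 base 1792: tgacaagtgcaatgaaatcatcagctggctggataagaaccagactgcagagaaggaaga
Hspa8 base 523: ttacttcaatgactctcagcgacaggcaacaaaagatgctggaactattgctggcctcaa

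Among the HSP110 proteins, which free HSP70 from its nucleotide, Hspa4 read 9.62, 9.79, 9.40 and 9.80 log2 on the laser arrays, 10.07, 10.01, 10.06 and 10.11 on the bur arrays, and 9.93, 10.16, 10.12 and 10.02 on the control arrays. The laser arrays lay below all others. Laser minus control was -0.41 (adjusted p = 0.0264) and laser minus bur -0.41 (adjusted p = 0.0291), while bur minus control was 0.01. The first was lost without laser 1 (-0.39), laser 3 (-0.32), control 2 (-0.37) or control 3 (-0.39), and the second without laser 1 (-0.40), laser 3 (-0.33), bur 3 (-0.41) or bur 4 (-0.40). Against control it was also lost under 75th-percentile scaling (-0.30) and in a fit of the 2 groups alone. Hsph1, the HSP110 whose window above holds 3 units, read 5.4, 5.77, 5.29 and 5.44 on the laser arrays, 5.57, 4.88, 3.95 and 4.48 on the bur arrays, and 5.35, 5.26, 4.85 and 4.38 on the control arrays. Its groups overlapped, with 0.51 for laser against control (adjusted p = 0.243) and 0.76 for laser against bur (adjusted p = 0.103). Laser against bur passed without bur 1 (1.04, adjusted p = 0.0197), with array weights (0.99) and under 75th-percentile scaling (0.92). In the authors' deposited table Hsph1 is higher in laser than bur bone (0.50, adjusted p = 0.0252, by the authors' own test). Hspa4l differed by -0.42 for laser and -0.93 for bur against control and passed the test in neither. In the authors' deposited table a second Hspa4l probe is lower than control after laser (-0.40, adjusted p = 0.0271) and bur (-0.48, adjusted p = 0.0157). The leading Hspa4l probe is called there in neither (-0.16 and -0.40).

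**Figure D3:**
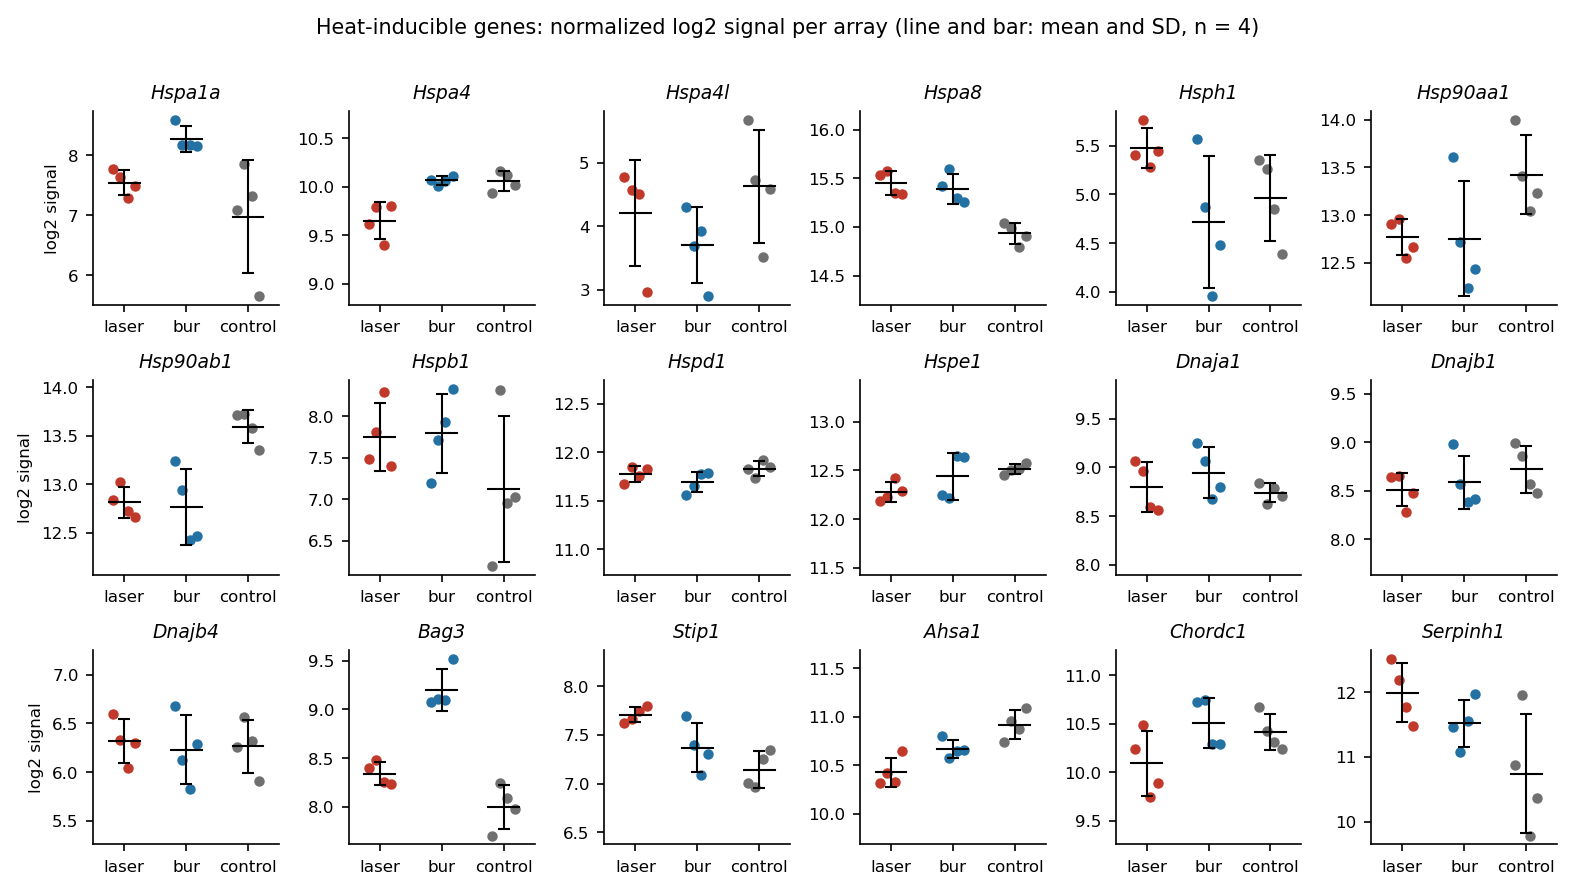
Normalized log2 signal (y axis, one scale per panel) of heat-inducible chaperones on the 4 laser, 4 bur and 4 control arrays, left to right; points are arrays, lines and bars the mean and SD. The bur arrays of Bag3 stand above both other groups, and the Hspa1a values of laser and control overlap.

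None of the HSP90 genes was called higher on its leading probe. Hsp90aa1, the inducible form, read 12.90, 12.95, 12.55 and 12.67 log2 on the laser arrays, 13.61, 12.72, 12.24 and 12.44 on the bur arrays, and 14.00, 13.41, 13.04 and 13.23 on the control arrays, and the differences of -0.65 (adjusted p = 0.108) and -0.67 (adjusted p = 0.127) from control did not pass. Without bur 1 they were -0.65 (adjusted p = 0.0373) and -0.96 (adjusted p = 0.0185), both called lower, as they were with normexp (-0.76 and -0.85) and with the replicate block. In the authors' deposited table a second Hsp90aa1 probe is lower than control after laser (-0.58, adjusted p = 0.00745) and bur (-0.61, adjusted p = 0.00773), by the authors' own test. Another Hsp90aa1 probe, on the opposite strand in rn4, gave -0.04 and 0.49 there and was called in neither. Hsp90ab1, the constitutive form, read 12.84, 13.02, 12.73 and 12.67 on the laser arrays, 13.24, 12.94, 12.43 and 12.47 on the bur arrays, and 13.71, 13.72, 13.58 and 13.35 on the control arrays. On this probe laser was 1.71-fold lower than control (-0.78 ± 0.19, adjusted p = 0.00922), bur was lower too (-0.82, adjusted p = 0.0114), and laser minus bur was 0.05. In a limma fit of the authors' deposited values the same probe gave -0.18 for laser (adjusted p = 0.271) and -0.31 for bur (adjusted p = 0.0723), neither called. A second Hsp90ab1 probe was called the other way for laser: 13.18, 13.23, 13.16 and 13.48 on the laser arrays, 12.63, 12.89, 12.88 and 12.99 on the bur arrays and 12.60, 12.29, 13.00 and 12.98 on the control arrays, a difference from control of 0.54 (adjusted p = 0.0318). The remaining probe gave 0.19 (adjusted p = 0.34), and the mean of the 3 gave -0.02 for laser and -0.22 for bur, neither called. The probes at bases 638 and 2082 are printed because they read the same transcript and the lower call rests on the first of them alone.
Hsp90ab1 base 638: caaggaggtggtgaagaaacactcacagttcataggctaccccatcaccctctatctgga
Hsp90ab1 base 2082: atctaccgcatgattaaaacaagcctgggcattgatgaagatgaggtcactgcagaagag

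Helpers of HSP90 split in direction in laser bone. Stip1, the adaptor that hands clients from HSP70 to HSP90, read 7.62, 7.67, 7.74 and 7.80 log2 on the laser arrays, 7.70, 7.39, 7.09 and 7.30 on the bur arrays, and 7.0, 6.96, 7.25 and 7.35 on the control arrays. All laser values lay above all controls, by 0.57 (1.48-fold, adjusted p = 0.0145), and bur overlapped both (0.23, adjusted p = 0.31). Ahsa1, the activator of the HSP90 ATPase, read 10.32, 10.42, 10.33 and 10.64 on the laser arrays, 10.80, 10.58, 10.64 and 10.66 on the bur arrays, and 10.74, 10.96, 10.88 and 11.09 on the control arrays. Here laser lay wholly below control (-0.49, adjusted p = 0.0123) and bur did not pass (-0.25, adjusted p = 0.193), though it was called lower with normexp and with the authors' deposited values (-0.43 each). Under 75th-percentile scaling the differences were 0.40 for Stip1 and -0.36 for Ahsa1 and neither passed (adjusted p = 0.065 and 0.0653). Chordc1, another HSP90 co-chaperone, passed in no comparison (-0.32 for laser and 0.10 for bur against control); in the authors' deposited table it is lower in laser bone than in control (-0.36, adjusted p = 0.0329) and bur bone (-0.41, adjusted p = 0.0234), by the authors' own test, while the limma fit of the same values passed in neither (adjusted p = 0.12 and 0.0955).

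The inducible J proteins, Hspb1 and Hspe1 passed the test in no comparison on all 12 arrays. Dnajb1, the J protein partner of inducible HSP70, differed from control by -0.21 in laser and -0.13 in bur bone, Dnaja1 by 0.06 and 0.21 (called for bur in the authors' deposited table, 0.46, adjusted p = 0.0262), and Dnajb4 by 0.06 and -0.03. Hspb1 (HSP27), a small heat shock protein, was 0.62 above control after laser (adjusted p = 0.262) and 0.67 after bur (adjusted p = 0.268); without control 2 both were called, at 1.02 (adjusted p = 0.0331) and 1.06 (adjusted p = 0.0422). Hspe1 (HSP10) gave -0.23 for laser and -0.07 for bur.

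Hspd1 (HSP60), which shares its promoter run with Hspe1, was again read differently by its probes. The brightest, near the 3′ end, read 11.67, 11.85, 11.75 and 11.83 log2 on the laser arrays, 11.56, 11.65, 11.77 and 11.79 on the bur arrays and 11.82, 11.74, 11.92 and 11.85 on the control arrays, with -0.05 for laser against control (adjusted p = 0.734). The probe at base 1168 read 7.52, 7.66, 7.5 and 7.63 on the laser arrays, 6.75, 5.91, 5.92 and 5.93 on the bur arrays and 6.32, 6.62, 6.39 and 5.84 on the control arrays. The probe at base 1689 read 8.74, 8.77, 8.72 and 8.82 on the laser arrays, 8.15, 7.41, 7.34 and 7.75 on the bur arrays and 7.25, 7.80, 7.86 and 7.81 on the control arrays. On these 2 inner probes every laser array lay above every other array, by 1.29 (adjusted p = 0.00108) and 1.08 (adjusted p = 0.00162) against control and by 1.45 (adjusted p = 0.000603) and 1.1 (adjusted p = 0.00177) against bur. The mean of the 3 probes gave 0.77 for laser against control (adjusted p = 0.00157), against -0.05 on the brightest.
Hspd1 base 1168: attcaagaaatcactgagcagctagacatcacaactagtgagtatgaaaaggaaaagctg
Hspd1 base 1689: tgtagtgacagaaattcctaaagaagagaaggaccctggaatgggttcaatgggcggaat

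Probes of one gene disagreed about as often among chaperones as elsewhere. Among 23 members with more than 1 kept probe, calls differed between probes for 8 in laser against control (34.8%), 5 in bur against control (21.7%) and 9 in laser against bur (39.1%), where 44.0%, 22.3% and 38.0% of 4747 such genes differed. Fold changes of probes lay 1 log2 or more apart for 4 members in laser against control (Dnajb6, Hsp90ab1, Hspa8 and Hspd1), for Hsp90aa1 in bur against control, and for 5 in laser against bur (Dnajb6, Dnajc27, Hsp90aa1, Hspa8 and Hspd1). That is 17.4%, 4.35% and 21.7% of the 23, where 22.6%, 8.57% and 20.9% of all such genes lay so far apart. Both Hsp90aa1 entries rest on a probe that rn4 places on the strand opposite to the other Hsp90aa1 probes, and what it reads was not tested. Its 2 same-strand probes gave -0.67 and -0.30 for bur against control and 0.02 and -0.02 for laser against bur. For pairs of probes at least 300 bases apart on one of 1853 transcripts, a set chosen after the values were seen, 18% differed by 1 log2 or more for laser against control, 5.67% for bur against control and 16% for laser against bur. These shares were higher in both comparisons that cross slides, and the cause was not tested.

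**Figure D4:**
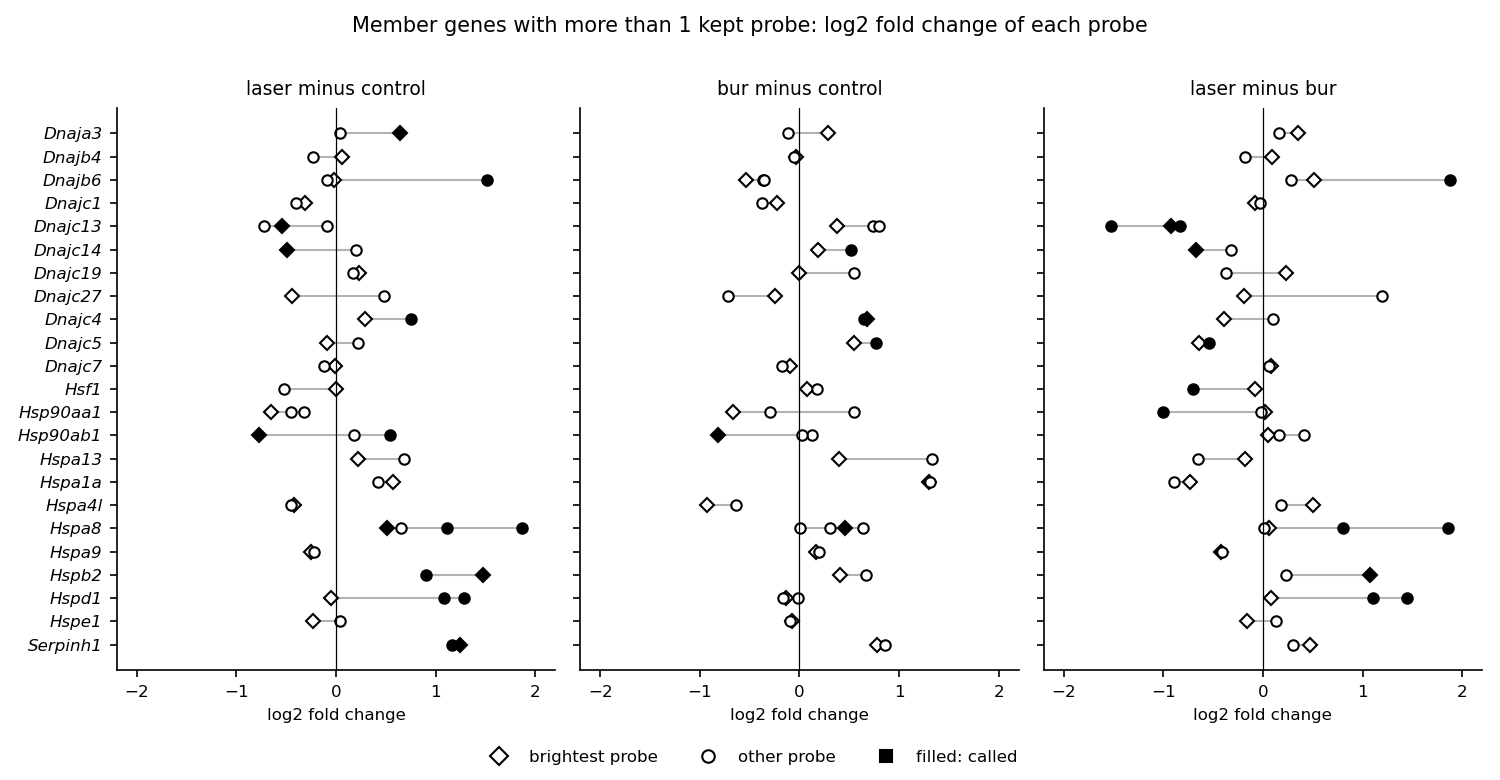
Log2 fold change (x axis) of each kept probe of members with several probes, for laser and bur against control and laser against bur; diamonds mark the brightest probe of the gene and filled points a limma adjusted p under 0.05. The Hspa8 and Hspd1 probes spread by over 1 log2 in both comparisons with laser and by less for bur against control.

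Bag3, the HSF1-induced BAG protein that couples HSP70 to small heat shock proteins and autophagy, rose in bur bone above both other groups. Its probe (rn4 chr1:187804666-187804725, plus strand) read 8.39, 8.48, 8.25 and 8.23 log2 on the laser arrays, 9.08, 9.11, 9.10 and 9.52 on the bur arrays, and 7.70, 8.24, 8.09 and 7.98 on the control arrays. Every bur array lay above every laser and control array, and the laser and control ranges overlapped through control 2. Bur minus control was 1.20 ± 0.15 (2.30-fold, adjusted p = 0.000669) and laser was 1.82-fold below bur (-0.86, adjusted p = 0.00182), while laser minus control was 0.34 (adjusted p = 0.112). Both called differences held in every alternative run and with each array left out, where bur minus control ran from 1.09 to 1.28. Of 9 monocyte and macrophage markers, 8 were also higher than control in bur and 4 in laser bone, with sums of 8510 to 13700 on the laser arrays, 18000 to 32800 on the bur arrays and 7040 to 9890 on the control arrays; their part in the Bag3 result was not tested.

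Bag2, which restrains the ubiquitin ligase that works with HSP70, rose after both procedures. It read 8.29, 8.23, 7.95 and 7.86 log2 on the laser arrays, 7.65, 7.48, 7.52 and 7.73 on the bur arrays, and 6.44, 6.71, 6.29 and 6.06 on the control arrays. No control array reached a laser or bur value. Laser exceeded control 3.26-fold (1.71 ± 0.16, adjusted p = 2.02e-05) and bur 2.33-fold (1.22, adjusted p = 0.000826), and both held in every alternative. The laser lead over bur (0.49, adjusted p = 0.045) was lost without any one of laser 1, 2 and 3, bur 1 to 4 or control 3, with values of 0.42 to 0.53. Bag4, an inhibitor of death receptor signalling that binds HSP70, read 3.71, 3.34, 3.38 and 4.14 on the laser arrays, 4.43, 3.89, 4.71 and 4.24 on the bur arrays and 3.85, 4.82, 4.93 and 4.52 on the control arrays. Laser minus control was -0.89 (adjusted p = 0.0274), with overlap between the groups, and the call was lost without laser 1, 2 or 3 or control 2, 3 or 4 (-0.91 to -0.75). With the authors' deposited values it was -0.37 and not called (adjusted p = 0.0634), and with normexp -0.25. Bag1 and Bag6 were called in no comparison; in the authors' deposited table Bag6 is lower in bur than control bone (-0.35, adjusted p = 0.0311).

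Serpinh1 (HSP47) is the collagen chaperone of the endoplasmic reticulum and is both heat-inducible and made by bone-forming cells. It read 12.52, 12.19, 11.78 and 11.48 log2 on the laser arrays, 11.47, 11.08, 11.55 and 11.97 on the bur arrays, and 10.87, 11.95, 9.78 and 10.37 on the control arrays. Laser exceeded control 2.38-fold (1.25 ± 0.41, adjusted p = 0.0356), with control 2 inside the laser range, and bur minus control was 0.78 (adjusted p = 0.201), called only without control 2 (1.18, adjusted p = 0.0296). The laser call was lost without laser 1, 2 or 3 or control 1, 3 or 4, with values of 0.93 to 1.32 and adjusted p of 0.054 to 0.0996, and also in a fit of the 2 groups alone, without a filter on dim probes and without control 1 and control 4 together. A second Serpinh1 probe was also called higher in laser than control bone. In the authors' deposited table that probe is higher after laser (1.20, adjusted p = 0.0215, by the authors' own test). After bur it is not called there (0.83, adjusted p = 0.1). Of the 11 osteoblast and osteocyte markers, 6 were higher than control in laser bone (Alpl, Col1a2, Phex, Sp7, Mepe and Runx2) and 2 in bur bone. Their sums were 215000 to 298000 on the laser arrays, 140000 to 211000 on the bur arrays and 97000 to 188000 on the control arrays, and their part in the Serpinh1 result was not tested.

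Of 7 small heat shock proteins measured, 3 were higher in laser bone (Hspb2, Hspb8 and Hspb9), 3 in bur bone (Hspb8, Hspb9 and Ift25, the intraflagellar transport protein once named Hspb11), and 0 were lower. Of all genes, 17.8% were higher and 15.6% lower after laser, and 12.8% and 9.12% after bur. Hspb8 and Hspb9 were dim, and Ift25 (0.63) was 0.13 and not called in the authors' deposited table (adjusted p = 0.348). Hspb9, described in human and mouse testis, read 5.72, 5.98, 6.01 and 4.87 log2 on the laser arrays, 3.41, 3.02, 2.73 and 2.38 on the bur arrays, and 2.24, 0.84, 1.51 and 2.09 on the control arrays. It was well above background on the laser arrays only and passed the filter through them alone, so that its rise is given as a description: at least 9.16-fold above control (fitted 3.98 ± 0.35) and at least 6.71-fold above bur (fitted 2.76). The bur difference from control (1.22, adjusted p = 0.0322) lay below background on both sides and was lost without bur 1 (1.04), bur 2 (1.17), bur 3 (1.27), control 2 (0.94) or control 3 (1.17). With normexp background correction the laser difference of Hspb9 was 0.91 log2, and with the authors' deposited values 1.53.

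Hspb8, which forms a complex with Bag3, read 4.46, 4.44, 4.54 and 3.79 log2 on the laser arrays, 3.63, 3.72, 3.48 and 5.21 on the bur arrays, and 0.80, 1.09, 3.18 and 1.43 on the control arrays. It was well above background on 4 laser arrays, 2 bur arrays and 1 control array, and both cut groups lay above all controls. The fitted differences were 2.68 ± 0.51 for laser (6.42-fold, adjusted p = 0.00229) and 2.38 for bur (5.22-fold, adjusted p = 0.00809), and they shrank to 0.36 and 0.34 with normexp and to 0.67 and 0.61 with the authors' deposited values. Without control 1 and control 4 the bur difference was 1.87 and did not pass (adjusted p = 0.0807). Hspb2, a muscle small heat shock protein, stood out on brighter probes: 7.93, 7.75, 8.00 and 7.90 on the laser arrays, 6.78, 6.93, 6.62 and 6.95 on the bur arrays, and 6.34, 7.03, 6.18 and 6.11 on the control arrays. Laser lay wholly above both groups, 2.78-fold above control (1.48 ± 0.19, adjusted p = 0.000193) and 2.10-fold above bur (1.07, adjusted p = 0.00186). A second Hspb2 probe was called for laser against control (0.90) but not against bur, and the mean of both gave 0.65 against bur (adjusted p = 0.0546). Bur minus control was 0.41 and was called without control 2 (0.61, adjusted p = 0.0138), with normexp (0.39) and with the authors' deposited values (0.48). Of 9 skeletal muscle markers measured, 2 were higher than control in laser bone and 2 others in bur bone, their sums were 329 to 497 on the laser arrays, 306 to 676 on the bur arrays and 137 to 569 on the control arrays, and Myh2 and Myh4 were below background everywhere. Their part in the Hspb2 result was not tested. Hspb6 passed in neither comparison with control (0.08 for laser and -0.50 for bur).

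**Figure D5:**
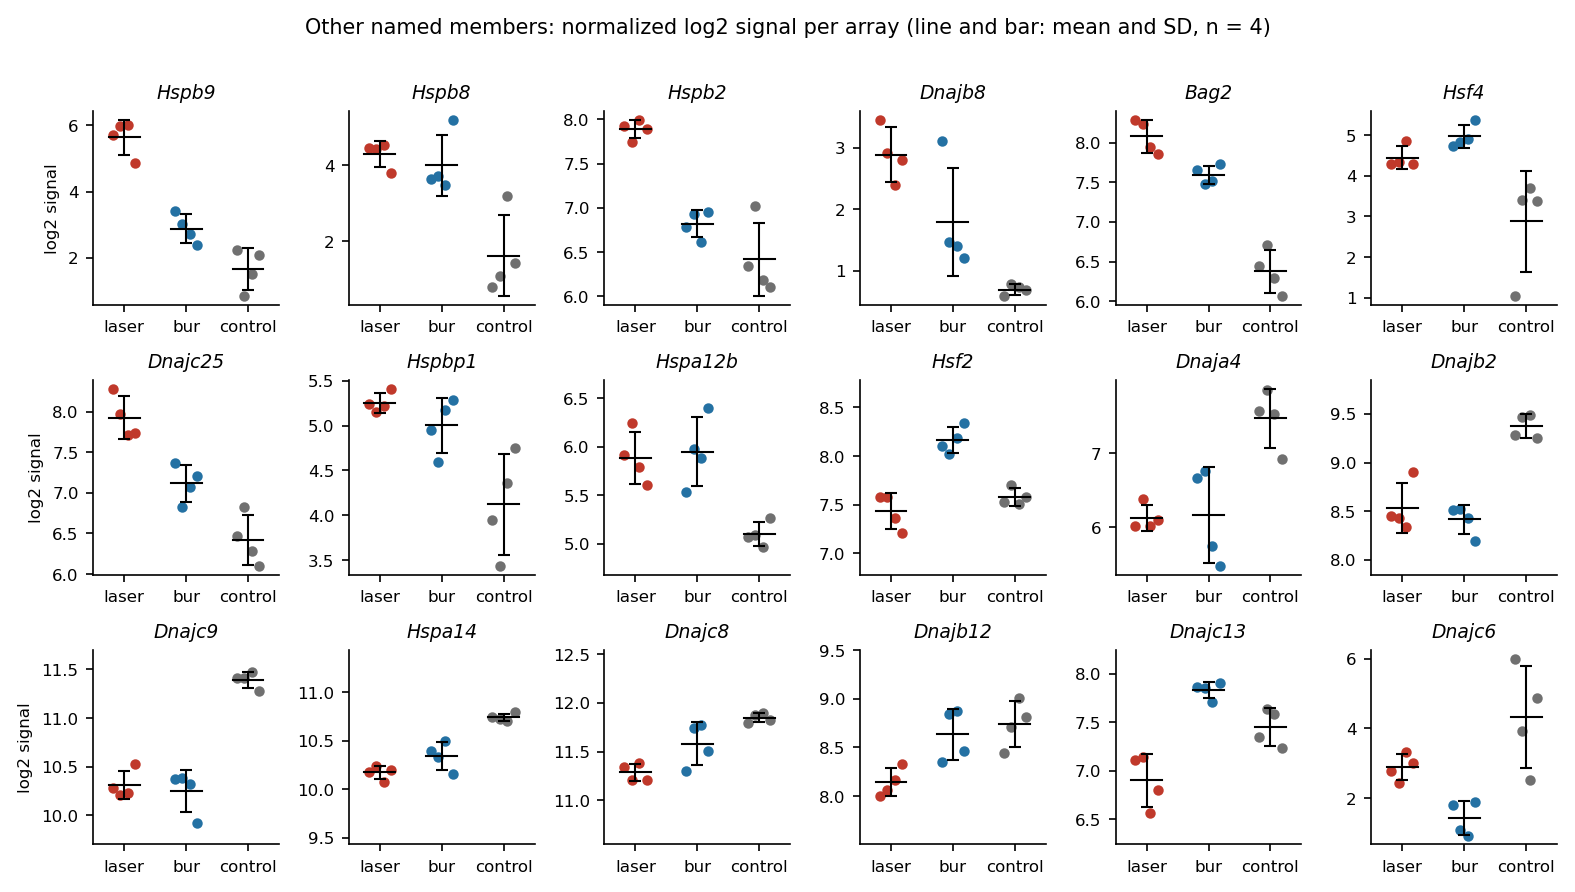
Normalized log2 signal (y axis, one scale per panel) of called members on the 4 laser, 4 bur and 4 control arrays, left to right; points are arrays, lines and bars the mean and SD. Bag2 stands above control after both procedures, Hspb2 is highest on the laser arrays and Hsf2 on the bur arrays.

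Heat shock factors, the regulators, differed among themselves. Hsf1, the master factor of the response, gave -0.0023 for laser and 0.08 for bur against control on its leading probe; a second probe put laser below bur (-0.70, adjusted p = 0.0304). Hsf2, its partner in development and mild stress, read 7.58, 7.58, 7.36 and 7.21 log2 on the laser arrays, 8.10, 8.03, 8.19 and 8.34 on the bur arrays, and 7.52, 7.70, 7.51 and 7.58 on the control arrays. The bur arrays lay above all others, 1.5-fold above control (0.59, adjusted p = 0.00914), with laser 0.73 log2 below bur (-0.73, adjusted p = 0.00177) and not apart from control (-0.14). Without control 1 and control 4 the Hsf2 difference of bur from control was 0.56 and missed the threshold (adjusted p = 0.0601). Hsf4, the lens factor, read 4.30, 4.34, 4.86 and 4.29 on the laser arrays, 4.74, 4.83, 4.92 and 5.38 on the bur arrays, and 1.03, 3.40, 3.70 and 3.39 on the control arrays, of which 2 were well above background. Both cut groups lay above control, by 1.57 ± 0.48 after laser (2.96-fold, adjusted p = 0.0276) and 2.09 after bur (4.25-fold, adjusted p = 0.0115). Without control 1 the laser value of Hsf4 was 0.95 and the bur value 1.47. The laser call was lost without laser 1 (1.62), laser 2 (1.60) or laser 3 (1.43) and in a fit of the 2 groups alone. With normexp the differences were 0.27 and 0.46, and with the authors' deposited values 0.55 and 0.88.

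HSP70 relatives outside the heat response moved in both directions. Hspa12b, a distant HSP70 of endothelial cells, read 5.91, 6.24, 5.79 and 5.60 log2 on the laser arrays, 5.54, 5.97, 5.89 and 6.40 on the bur arrays, and 5.07, 5.09, 4.97 and 5.26 on the control arrays. No control array reached either cut group. It rose 1.73-fold after laser (0.79, adjusted p = 0.0092) and 1.80-fold after bur (0.85, adjusted p = 0.0103), and under 75th-percentile scaling missed the threshold in both (0.60 and 0.54). With normexp the differences were 0.33 and 0.38, and with the authors' deposited values 0.39 and 0.51. Hspa14, which acts at the ribosome, read 10.18, 10.24, 10.08 and 10.20 on the laser arrays, 10.39, 10.33, 10.49 and 10.15 on the bur arrays, and 10.74, 10.73, 10.70 and 10.79 on the control arrays. It fell after both, with -0.57 (adjusted p = 0.00275) for laser and -0.40 (adjusted p = 0.0271) for bur against control, and the bur call was lost without bur 2 (-0.39), bur 4 (-0.34) or control 4 (-0.38), under 75th-percentile scaling (-0.29), with array weights, in a fit of the 2 groups alone and without control 1 and control 4 together (-0.37). Hspa9, the mitochondrial HSP70, differed between the procedures only (-0.43 for laser against bur, adjusted p = 0.0267), a call lost without laser 1, 3 or 4 or bur 3 or 4 (-0.44 to -0.35). Hspbp1, which strips nucleotide from HSP70, read 5.24, 5.15, 5.22 and 5.41 on the laser arrays, 4.96, 4.59, 5.18 and 5.29 on the bur arrays, and 3.94, 3.43, 4.36 and 4.75 on the control arrays. Its laser difference was 1.13 (2.19-fold, adjusted p = 0.00606) and its bur difference 0.88 (adjusted p = 0.0317), of which the bur call was lost without bur 1, 3 or 4 or control 1 or 2 (0.65 to 0.90), under 75th-percentile scaling (0.52), with array weights (0.81) and in a fit of the 2 groups alone. With normexp its differences were 0.39 and 0.26, and with the authors' deposited values 0.69 and 0.43. The ER chaperones Hspa5 (BiP) and Hsp90b1 (GRP94), read-outs of stress in the endoplasmic reticulum, passed in no comparison: -0.33 and 0.42 for laser against control, 0.11 and 0.17 for bur. In the authors' deposited table Hspa5 is lower in laser bone than in control (-0.40, adjusted p = 0.0239) and bur bone (-0.43, adjusted p = 0.0215).

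J proteins were the biggest family, with 42 measured. In laser bone 4 were higher than control and 8 lower. In bur bone 3 were higher and 4 lower, and laser against bur gave 2 higher and 4 lower. Dnajb8, which passed the filter through the laser arrays alone, is among those higher in laser bone in both laser comparisons. Of all genes, 17.8% were higher and 15.6% lower after laser, 12.8% and 9.12% after bur, and 11.6% and 14% in laser against bur. Dnajc9, a J protein that also carries histones H3 and H4, read 10.28, 10.21, 10.23 and 10.52 log2 on the laser arrays, 10.37, 10.38, 10.32 and 9.92 on the bur arrays, and 11.41, 11.42, 11.48 and 11.28 on the control arrays. Dnajb2, known in neurons, read 8.45, 8.43, 8.34 and 8.91 on the laser arrays, 8.51, 8.52, 8.43 and 8.19 on the bur arrays, and 9.29, 9.47, 9.49 and 9.25 on the control arrays. Dnaja4 read 6.02, 6.38, 6.01 and 6.09 on the laser arrays, 6.67, 6.76, 5.75 and 5.48 on the bur arrays, and 7.57, 7.85, 7.53 and 6.92 on the control arrays. In all 3 every cut array lay below every control array. Dnajc9 fell by 1.08 after laser (adjusted p = 0.000167) and by 1.14 after bur (adjusted p = 0.000539), Dnajb2 fell by 0.84 (adjusted p = 0.00154) and 0.96 (adjusted p = 0.00175), and Dnaja4 was 2.53-fold lower after laser (-1.34 ± 0.30, adjusted p = 0.00535) and 2.47-fold lower after bur (-1.30, adjusted p = 0.0107). These 6 calls held in every alternative run, with Dnaja4 at -0.83 after laser and -0.73 after bur under normexp. Erythroid markers fell in the same groups, 10 of 10 lower after either procedure, with sums of 52300 to 68300 on the laser arrays, 43600 to 93000 on the bur arrays and 153000 to 181000 on the control arrays; their part in the J protein results was not tested.

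Among the J proteins that rose, Dnajc25, a membrane J protein of the endoplasmic reticulum, read 8.28, 7.98, 7.71 and 7.74 log2 on the laser arrays, 7.36, 6.83, 7.07 and 7.20 on the bur arrays, and 6.47, 6.83, 6.28 and 6.10 on the control arrays. Laser lay wholly above bur and control, 2.84-fold above control (1.51 ± 0.19, adjusted p = 0.000187) and 0.81 log2 above bur (adjusted p = 0.0103). Bur exceeded control 1.62-fold (0.70, adjusted p = 0.0264), a call lost without bur 1 (0.62), bur 4 (0.67), control 3 (0.65) or control 4 (0.59), under 75th-percentile scaling (0.47), in a fit of the 2 groups alone and without control 1 and control 4 together (0.56). With normexp it was 0.44. Dnaja3, a mitochondrial J protein, was 1.56-fold above control after laser (0.64, adjusted p = 0.00265) and 0.29 above it after bur, which is called in the authors' deposited table (0.42, adjusted p = 0.0346), but its other probe gave 0.04 for laser. Dnajb8, described in testis, read 3.46, 2.91, 2.39 and 2.80 on the laser arrays, 3.10, 1.47, 1.40 and 1.20 on the bur arrays, and 0.58, 0.78, 0.73 and 0.69 on the control arrays. It too passed the filter through the laser arrays alone, at least 1.36-fold above control, and with normexp its difference was 0.16. Of the 110 kept probes, 4 were well above background in the laser group alone, the group whose arrays were brighter before normalization, and the part of that brightness was not tested.

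Laser bone also read lower than bur bone for Dnajc13 and Dnajc14. Dnajc13, which acts on endosomes, read 7.11, 7.14, 6.57 and 6.80 log2 on the laser arrays, 7.87, 7.85, 7.71 and 7.90 on the bur arrays, and 7.35, 7.64, 7.58 and 7.23 on the control arrays. Dnajc14, which helps receptors leave the endoplasmic reticulum, read 8.55, 8.58, 8.54 and 8.53 on the laser arrays, 9.16, 9.31, 9.36 and 9.06 on the bur arrays, and 8.84, 8.98, 9.16 and 9.18 on the control arrays. For both, laser was the lowest group without overlap. Laser minus bur was -0.93 for Dnajc13 (adjusted p = 0.00132) and -0.67 for Dnajc14 (adjusted p = 0.002), and these held in every alternative that could be run. The leading Dnajc14 probe is absent from the authors' deposited values, so that alternative was not run for it. Against control they were -0.55 (adjusted p = 0.0203), lost without laser 3 (-0.43), laser 4 (-0.51) or control 2 (-0.48), with array weights (-0.43) and with the mean of its probes (-0.45), and -0.49 (adjusted p = 0.00982). A second Dnajc14 probe gave 0.20 for laser against control (adjusted p = 0.353) and -0.32 for laser against bur, and the mean of both gave -0.15 against control (adjusted p = 0.38). With normexp the Dnajc13 difference from control was -0.33. Bur minus control, 0.38 for Dnajc13, was called with normexp (0.36), with the authors' deposited values (0.46) and with the mean of its probes (0.64). Dnajc8, a splicing-linked J protein, was below control after laser (-0.56, adjusted p = 0.00664) and, with normexp (-0.51) or the authors' deposited values (-0.48) only, after bur; Dnajb12, which serves protein degradation at the endoplasmic reticulum, was lower after laser (-0.60, adjusted p = 0.0177), a call lost without laser 1 (-0.56) or laser 2 (-0.58). The remaining called members were Dnajc15 (0.49) and Dnajb14 (-0.51) in laser against control, Dnajc22 (0.82), Dnajc4 (0.68) and Ift25 (0.63) in bur against control, and Bag5 (-0.33), Dnajc24 (-0.37) and Dnajb12 (-0.49) in laser against bur. With single arrays left out, the call against bur was lost in 9 runs for Dnajb12 and in 7 for Dnajc24. It was also lost for Dnajb12 without a filter on dim probes and for Dnajc24 with the replicate block. The other members of this list were not followed through the alternatives.

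Dnajc6 (auxilin), which strips clathrin from vesicles in neurons, read 2.79, 2.44, 3.32 and 3.02 log2 on the laser arrays, 1.81, 1.09, 0.93 and 1.90 on the bur arrays, and 6.0, 3.92, 2.53 and 4.87 on the control arrays. The controls spread widely, with control 1 and control 4 highest. Laser minus control did not pass (-1.44, adjusted p = 0.0812) except without control 3 (-2.04, adjusted p = 0.0067) and with array weights, while bur bone, where 0 of 4 arrays read it well above background, was at least 3.57-fold lower than control (fitted -2.90, adjusted p = 0.00605). Summed neural markers were 1300 to 3090 on the laser arrays, 1220 to 2780 on the bur arrays and 1100 to 12800 on the control arrays, and without control 1 and control 4 the bur difference of Dnajc6 was -1.80. With normexp it was -0.53, and with the authors' deposited values -0.88.

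Chaperone groups outside the naming rule are set beside the 33.4% of all genes called for laser against control, 21.9% for bur against control and 25.6% for laser against bur. Of 23 other co-chaperones measured, 1 (Unc45a, the myosin chaperone) was higher and 3 (Sugt1, Cacybp and Ppid) lower in laser than in control bone, 2 (Unc45a and Hsbp1) were higher in bur than control bone, and 3 (Sugt1, Sgta and Ppid) were lower in laser than bur bone. Of 8 subunits of the cytosolic chaperonin TRiC, which folds actin and tubulin, Tcp1 was lower in laser bone and Cct8 higher in bur bone, and Cct8 and Cct3 were lower in laser than in bur bone. Of 6 prefoldin subunits, which pass clients to TRiC, 0 were called at a limma adjusted p under 0.05. Among 10 chaperones of the endoplasmic reticulum, 2 were higher after laser and 1 after bur, and of 8 mitochondrial chaperones 2 were higher after laser and 0 after bur.

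Of 19 measured members with GAANNTTC or TTCNNGAA in the window, 4 were higher and 0 lower than control after laser, 3 higher and 0 lower after bur, and 0 higher and 2 lower in laser than in bur bone. Over all genes, 17.8% were higher and 15.6% lower after laser, 12.8% and 9.12% after bur, and 11.6% and 14% in laser against bur. Of 46 measured members without it, 7 were higher and 11 lower after laser, 8 higher and 6 lower after bur, and 4 higher and 6 lower in laser than in bur bone. The 7 and the 4 include Hspb9 and Dnajb8, which passed the filter through the laser arrays alone. Median log2 differences from control were -0.02 after laser and -0.07 after bur with a pair, and 0.01 after laser and 0.24 after bur without one. In the authors' deposited table, 66 members could be matched, of which 12 were higher and 15 lower for laser against control, 17 higher and 10 lower for bur against control, and 7 higher and 12 lower for laser against bur. The share of all probes called in that table was not set beside these counts, which are a description only.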

How the data were processed

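Total RNA of rat calvarial bone was hybridised to 12 one-colour Agilent arrays, 4 per group. The deposited scanner files hold a processed intensity per spot from Agilent Feature Extraction 11.0.1.1, corrected for background within the array, per the file headers. The authors' deposited tables hold quantile-normalized log2 values, log2 fold changes, and p-values with adjusted p-values, per the file headers. "The authors' deposited table" names those fold changes and p-values, and "the authors' deposited values" a limma fit of the normalized values.

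Processed signal was quantile normalized on the log2 scale over rat probes, with outlier spots left out and spots of a probe averaged. A probe was kept if well above background on at least 4 of 12 arrays, which 27194 of 45598 were. All 12 arrays entered 1 fit in limma 3.58.1 (R 4.3.3), with Benjamini-Hochberg adjustment over kept probes and calls at 0.05. Each gene was read by its brightest kept probe. Names came from RefSeq (GRCr8) through accessions for 21177 probes and from the file for 14720. The script was tested on simulated data. Where no array of a group read a gene well above background, "at least N-fold" sets the bright group against the dimmest signal still well above background. It holds for this background correction.

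Members, gene lists, tests and alternatives were chosen with earlier results of these data known. Named are all heat-inducible list genes, the 8 highest and 8 lowest called members per comparison, members whose probes were called in opposite directions, and up to 4 genes of other lists; Hsf1, Hspb6, Hspa5, Hsp90b1, Bag1, Bag6, Dnaja3 and Ift25, and the members given by one value at the end of the J protein results, were added after their values were seen. Probe coordinates are those of build rn4 in the scanner files; exons of rn4 were not analysed here. The number of arrays limits precision. Alternatives covered scaling, background correction, the dim-probe filter, the probe of a gene, the samples in the fit, array weights, the replicate block, the authors' values and single arrays left out.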

Additional observations from a re-analysis of the deposited data

Results flagged for a closer look

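Of 120 sets of 4 replicate values checked for a lone extreme array (Dixon's test at its 95% critical value), 10 stood out, where chance marks about 1 in 20. In laser bone these were Hspa4l on laser 4, at 2.96 log2 with the others at 4.51 to 4.77, Hspb8 on laser 4, at 3.79 with the others at 4.44 to 4.54, and Hsf4 on laser 3, at 4.86 with the others at 4.29 to 4.34. In bur bone Hspa1a was 8.60 on bur 1 with the others at 8.16 to 8.17, and Dnajb8 was 3.10 on bur 1 with the others at 1.20 to 1.47. On bur 4, Bag3 was 9.52 with the others at 9.08 to 9.11, Hspb8 was 5.21 with the others at 3.48 to 3.72, and Dnajc9 was 9.92 with the others at 10.32 to 10.38. On control 1, Hsf4 was 1.03 with the others at 3.39 to 3.70, and Hspa9 was 10.14 with the others at 10.30 to 10.32.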

How the results depend on the processing

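Member counts that moved by over 1.5 times were these. With 75th-percentile scaling 7 members were higher in bur than control bone and 11 in laser than bur bone. With normexp 31 were called for bur against control, 12 of them lower, and 8 were higher in laser than bur bone. Without a filter on dim probes 3 were higher in laser than bur bone, and with probes well above background on all 12 arrays 9 of 62 genes were higher in laser than control bone. With only the 2 groups compared in the fit, bur against control gave 12 calls, 7 of them higher, and laser against bur 8 higher. Array weights gave 26 calls for laser against bur, 12 higher and 14 lower. Without control 1 and control 4, 9 members were higher in bur than control bone. The scaling moved the median of all probes to -0.0502 from 0.047 for laser against control, to -0.0901 from 0.0951 for bur against control and to 0.027 from -0.0634 for laser against bur.

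Over single arrays left out, calls for laser against control ran from 21 to 29 (12 to 16 higher, 9 to 15 lower), for bur against control from 16 to 21 (9 to 15 higher, 5 to 7 lower), and for laser against bur from 7 to 20 (3 to 7 higher, 4 to 13 lower). Hspd1 turned from -0.05 to 0.77 for laser against control with the mean of its probes, because its probes differ. The cause of the other moves was not tested.

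Deviations of same-numbered samples correlated at -0.0729 to 0.242 for laser and control, 0.078 to 0.182 for bur and control and -0.0532 to 0.29 for laser and bur. Differently numbered samples were not correlated for comparison, so these values cannot decide whether equal numbers mark a pair. With the replicate block 28, 22 and 17 members were called in laser against control, bur against control and laser against bur, of which 27, 20 and 12 were also called without the block. Signal near background limits Hspb9, Hspb8, Dnajb8, Dnajc6 and Hsf4, whose fold changes shrank by over 1.5 times with normexp. Fold changes of Bag4, Hspbp1, Hspa12b, Dnaja4, Dnajc13 and Dnajc25 also shrank by over 1.5 times in a comparison with control. Normexp was run with an offset of 50, which itself makes the fold changes of low signals smaller. The part of that offset was not tested.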
